A study of Mus musculus with 12 samples.

Results

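The genes described here are 42 skeletal muscle genes of the sarcomere, of calcium handling and of muscle energy supply, which were taken by their symbols from the 18505 genes of the deposited expression table of mouse back skin. All 42 symbols were found, and all 42 passed the filter on low values that left 15288 genes for testing. By their known place in muscle they were divided into 14 fast fiber genes, 7 slow fiber genes, 1 perinatal myosin gene, 8 sarcomere genes shared by both fiber types, 5 calcium release genes and 7 energy genes. The RNA came from the skin of wild-type BALB/c mice on day 10, with 4 samples in each of 3 groups, and the study describes the mice as male with shaved backs. According to the study, control skin received petroleum jelly, while its label says only white space handling. The IMQ + NS group received imiquimod (IMQ) cream, a Toll-like receptor agonist that gives psoriasis-like lesions, followed by normal saline (NS). The IMQ + BZLF group received the same cream followed by Banzhilian formula (BZLF), a mixture of botanical drugs applied to the lesion. According to the study, saline and BZLF were held in place with gauze and a polyurethane film. It describes no such dressing for the control group, so imiquimod and dressing cannot be told apart in comparisons with control skin. The BZLF dose of the sequenced samples is not given in the sources used here. Nothing in the labels says that the 4 samples of a group came from separate mice, so the p-values measure only the spread between these samples.

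Mouse skin lies on a thin sheet of striated muscle, the panniculus carnosus, and a skin sample taken down to this sheet holds muscle RNA. In a muscle fiber, a nerve signal is sensed by voltage-gated calcium channels that are coupled to the calcium release channel. The released calcium binds troponin on the actin filament, and myosin heads then pull the filament while creatine kinase and glycolysis restore ATP. Fast and slow fibers use different genes for the myosin heavy and light chains and for the 3 troponin subunits, and the panniculus is known as a fast muscle. The labels name the tissue only as skin, so the layer from which the muscle RNA came is not stated. Expression was measured as FPKM (sequenced fragments divided by transcript length and by the size of the library), which is scaled for transcript length, so levels of different genes may be set side by side. In bulk skin, fewer muscle fibers and less muscle RNA per fiber cannot be told apart.

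The muscle genes made up a few percent of the control libraries and a fraction of a percent of the lesion libraries. Their summed FPKM was 3.28, 1.39, 3.03 and 3.13% of all FPKM in the 4 control samples, 0.263, 0.531, 0.227 and 0.312% in the IMQ + NS samples and 0.455, 0.441, 0.392 and 0.545% in the IMQ + BZLF samples. The sums were 12340 ± 4132 FPKM (SD, n = 4) in the control group, 1659 ± 674 FPKM in the IMQ + NS group and 2233 ± 276 FPKM in the IMQ + BZLF group, and every control sample lay above every lesion sample. In the control group the leading member was Acta1, and the next ones were Ckm, Tnni2, Mylpf, Tnnc2 and Tnnt3. The slow fiber genes other than Mybpc1 were low, with control means from 0.113 FPKM (Myh7) to 4.87 FPKM (Tnnt1). Of 8 heart muscle markers, Myh6, Nppa and Myl7 were listed at 0 in 4, 3 and 3 of the 4 control samples. The 8 markers summed to 1.64 to 2.19 FPKM in the control samples, 5.66 to 7.67 FPKM in the IMQ + NS samples and 4.58 to 5.80 FPKM in the IMQ + BZLF samples, and 2 of the 4 that were tested, Nppb (3.62 and 2.94) and Tnnt2 (1.16 and 1.46), were called higher in both lesion groups. The other 2 tested were below 0 and not called in both comparisons, with lowest log2 fold changes of -0.53 and -0.62.

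Control replicate 2 stood apart from the other control samples. It was the lowest control sample for 37 of the 42 genes, at a median of 0.486 times the mean of the other 3. Its summed FPKM of 8 hair follicle markers (hair shaft and inner root sheath keratins and hair transcription factors) was 1458 against 17.4 to 46.4 in the others. It also held 39.4 FPKM of 6 seminal vesicle markers, as did IMQ + BZLF replicate 2 with 38.2 FPKM, against at most 0.0441 FPKM elsewhere. IMQ + NS replicate 2 was the highest of its group for 34 of the 42 genes, at a median of 1.68 times the mean of the other 3. Counts of genes and medians are therefore also given without these 2 samples.

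Each pair of groups was compared with limma on log2(FPKM + 0.1) over the 15288 genes. Calls required a Benjamini-Hochberg adjusted p below 0.05 together with a change of more than 1 on the log2 scale. In the IMQ + NS group, 36 of the 42 genes fell against the control group and 1 rose, and the other 5 were not called. Of all genes tested, 11.0% were called lower and 11.4% higher in this comparison. The log2 fold changes of the 42 genes ran from -4.03 (Pvalb) to 2.01 (Tnni1), with a median of -2.61 beside 0.05 for all genes tested. In the IMQ + BZLF group, which was set against the same control samples, 36 genes were called lower, 1 higher and 5 neither, with a median of -2.37 beside -0.02 for all genes. The background in this comparison was 10.1% lower and 9.65% higher. Without control replicate 2 the medians were -2.89 and -2.62, and 36 genes were called lower in both comparisons. Leaving out IMQ + NS replicate 2 gave a median of -2.78 for the first comparison. The groups did not overlap for the same 37 genes that were called in each comparison, where 25.7% of all genes were lower and 23.7% higher without overlap for IMQ + NS against control samples, and 28.1% and 19.4% for IMQ + BZLF against control samples.

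**Figure D1:**
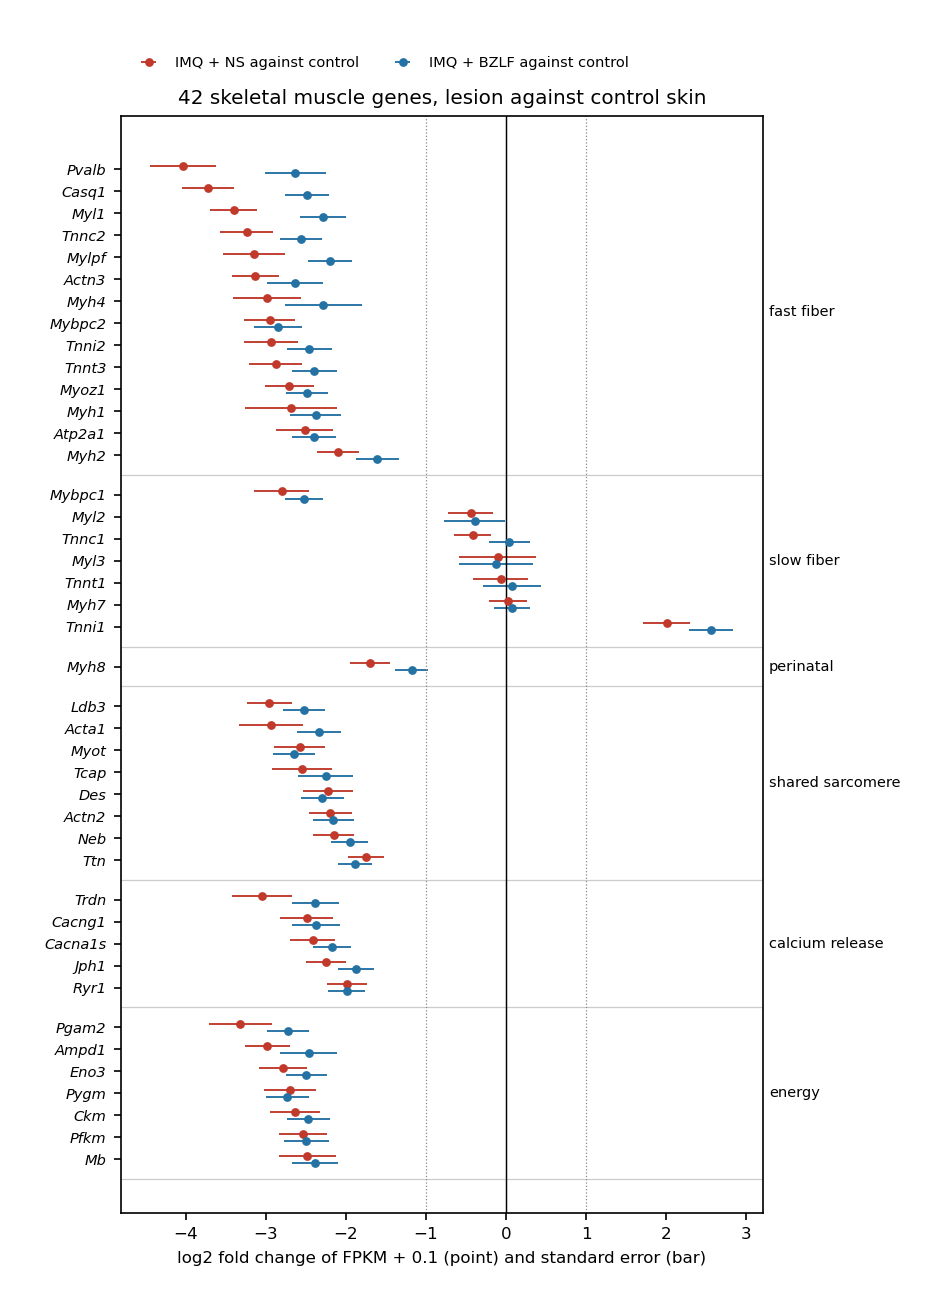
The points show the log2 fold change of FPKM + 0.1 of each of the 42 genes in the IMQ + NS group (red) and the IMQ + BZLF group (blue) against the same 4 control samples, with bars for the standard error and dotted lines at -1 and 1. The 14 fast fiber genes lie between -4.03 and -1.61 in the pair of comparisons, while 5 of the 7 slow fiber genes lie near 0 and Tnni1 lies at 2.01 and 2.56.

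The fast myosin heavy chain genes Myh4, Myh1 and Myh2, which encode the IIb, IIx and IIa motors, fell in both lesion groups. Myh4 measured 271, 115, 309 and 267 FPKM in the control samples, 32.8, 12.7, 37.2 and 42.02 FPKM in the IMQ + NS samples and 46.3, 67.6, 18.1 and 81.3 FPKM in the IMQ + BZLF samples. Every control sample lay above every lesion sample, and the lowest lesion values were those of IMQ + NS replicate 2 and IMQ + BZLF replicate 3. The mean of Myh4 was 7.72-fold lower in the IMQ + NS group (log2 fold change -2.98, standard error 0.43, adjusted p = 0.000505 from limma) and 4.51-fold lower in the IMQ + BZLF group (adjusted p = 0.00447 from limma). Myh1 measured 203, 134, 175 and 302 FPKM in the control, 26.99, 93.2, 10.4 and 31.9 FPKM in the IMQ + NS and 47.9, 25.2, 56.9 and 28.2 FPKM in the IMQ + BZLF samples. Here IMQ + NS replicate 2 was the highest lesion sample, and the groups still did not overlap. The log2 fold changes of Myh1 were -2.68 (standard error 0.58, adjusted p = 0.00426 from limma) and -2.38 (standard error 0.32, adjusted p = 0.000489). Myh2 fell from 32.1 ± 10.5 FPKM to 7.38 ± 2.29 and 10.4 ± 3.38 FPKM (SD, n = 4 each), the smallest log2 changes of the 14 fast genes in both comparisons (-2.10 and -1.61). These 3 genes and Myh8 are close relatives that lie next to each other on mouse chromosome 11 (GRCm38, positions 67171027 to 67308634), and reads from their shared stretches could have been split between them by the alignment.

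Myh8, the perinatal myosin heavy chain that developing fibers use, was far lower than its fast neighbours. Its levels were 1.67, 1.07, 1.58 and 2.15 FPKM in the control samples, 0.411, 0.541, 0.267 and 0.484 FPKM in the IMQ + NS samples and 0.727, 0.668, 0.601 and 0.575 FPKM in the IMQ + BZLF samples. The groups did not overlap, and the log2 fold changes against the control group were -1.70 and -1.17 (adjusted p = 0.000563 and 0.001799 from limma). With a constant of 1 in place of 0.1 they were -0.86 and -0.66, and Myh8 was no longer called. Myh7, the slow and cardiac beta myosin, was at 0.0743, 0.191, 0.0998 and 0.0885 FPKM in the control, 0.113, 0.0857, 0.171 and 0.0895 FPKM in the IMQ + NS and 0.153, 0.0935, 0.123 and 0.114 FPKM in the IMQ + BZLF samples. All 3 groups overlapped at this level of about 0.1 FPKM, where the added constant is as large as the value itself. Embryonic Myh3 was at most 0.0604 FPKM in any sample.

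The share of each gene in the summed myosin heavy chain FPKM (Myh1, Myh2, Myh3, Myh4, Myh7 and Myh8) was computed within each sample. Myh4 took 53.5, 42.5, 60.0 and 43.2% in the control samples, 49.5, 10.9, 69.5 and 51.2% in the IMQ + NS samples and 41.98, 66.1, 21.8 and 67.3% in the IMQ + BZLF samples. The lesion groups spread much more widely than the control group around like means of 49.8% (control), 45.3% (IMQ + NS) and 49.3% (IMQ + BZLF). Myh1 was highest where Myh4 was lowest, at 79.6% in IMQ + NS replicate 2 and 68.3% in IMQ + BZLF replicate 3. Myh2 took 5.79 to 7.80% in the control samples, 8.94 to 10.2% in the IMQ + NS samples and 8.44 to 13.7% in the IMQ + BZLF samples, so that every lesion sample lay above every control sample. The log2 ratio of Myh2 to Myh4 differed from the control group by 0.89 (standard error 0.62, two-sided exact permutation p = 0.2) in the IMQ + NS group. In the IMQ + BZLF group the difference was 0.67 (standard error 0.50, exact permutation p = 0.286). Both lesion groups overlapped the control group in this ratio. Myh7 took at most 0.3196% in any sample. The log2 ratio of Myh1 to Myh4 differed from the control group by 0.30 (standard error 1.02, two-sided exact permutation p = 0.857) in the IMQ + NS group and by -0.10 (standard error 0.79, exact permutation p = 0.886) in the IMQ + BZLF group, which is less than the spread between samples.

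**Figure D2:**
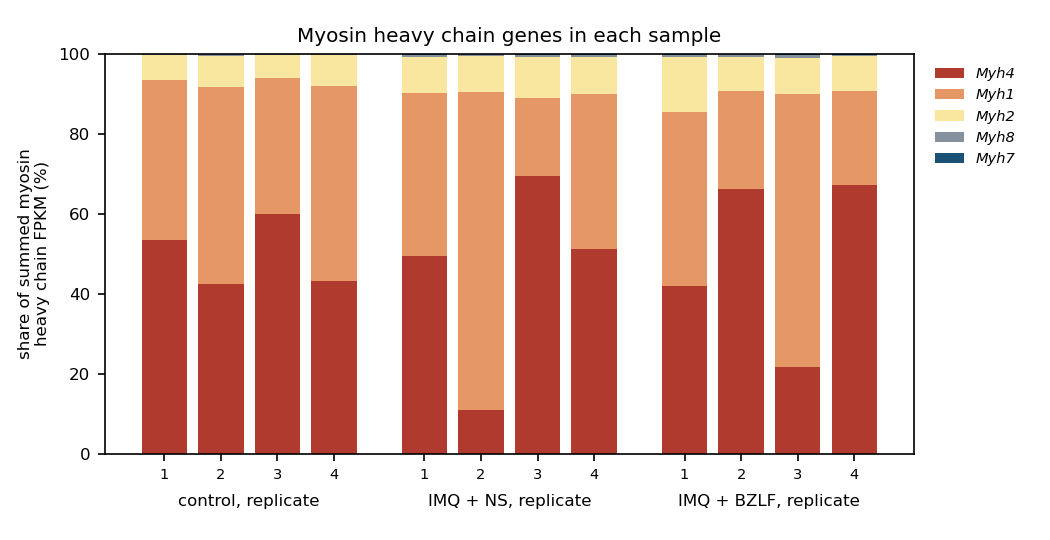
Each bar is 1 sample, divided by the share (%) of Myh4, Myh1, Myh2, Myh8 and Myh7 in the summed myosin heavy chain FPKM, with Myh3 too small to draw. Myh4 ranges from 42.5 to 60.0% in the control samples and from 10.9 to 69.5% in the lesion samples, and Myh7 is at or below 0.3196% in all 12.

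Promoter sequence was looked up for all members, whether or not they were called. RefSeq promoters (GRCm38.p6, the 250 bases before a transcript start) were matched for 31 of the 42 genes, with 41 starts in all. The E-box CANNTG, which reads the same on both strands, is the site of the MyoD family of muscle transcription factors, and its form CAGCTG is a subset of it. CAGCTG stood in 17 of the 41 promoters (41.5%), against 4271 of all 32851 promoters of the same length, and CANNTG in 82.9% against 66.2%. The SRF CArG box, the serum response factor site of actin genes, stood in 12.2% against 1.47%, the TATA box letters TATAAA on either strand in 17.1% against 12.4%, CATTCC on either strand in 24.4% against 12.6%, and the MEF2 site in 1 of 41 against 0.508%. These are matches of letters and not measured sites. Windows of different starts of a gene can overlap and were counted separately. The same CArG box of Ldb3, and the same CAGCTG of Mb and of Tnni1, thus stand in more than 1 of the 41 promoters. In the sequences below the capitals mark CANNTG, the CArG box and TATAAA on either strand. The first is alpha-actin, the most abundant member, the next 3 are fast myosin genes that fell, and the last is slow troponin I, the member that rose, with the upstream of its 2 listed starts.
Acta1, chr8:123894776-123895025 (- strand): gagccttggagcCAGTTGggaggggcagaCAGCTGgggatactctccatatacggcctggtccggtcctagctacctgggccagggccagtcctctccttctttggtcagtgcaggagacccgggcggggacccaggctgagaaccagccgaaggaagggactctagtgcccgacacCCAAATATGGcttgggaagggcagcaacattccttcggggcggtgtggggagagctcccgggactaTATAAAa
Myh4, chr11:67237562-67237811 (+ strand): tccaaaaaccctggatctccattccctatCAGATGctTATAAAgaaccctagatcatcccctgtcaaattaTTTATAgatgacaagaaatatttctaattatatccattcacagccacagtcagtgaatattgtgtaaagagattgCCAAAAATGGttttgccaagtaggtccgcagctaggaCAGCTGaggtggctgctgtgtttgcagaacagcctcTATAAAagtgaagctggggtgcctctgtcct
Mylpf, chr7:127211358-127211607 (+ strand): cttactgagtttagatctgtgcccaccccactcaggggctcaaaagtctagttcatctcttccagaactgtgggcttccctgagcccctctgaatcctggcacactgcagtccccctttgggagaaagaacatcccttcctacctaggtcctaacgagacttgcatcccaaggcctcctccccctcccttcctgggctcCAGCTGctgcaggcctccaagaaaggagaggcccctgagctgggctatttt
Myl1, chr1:66945057-66945306 (- strand): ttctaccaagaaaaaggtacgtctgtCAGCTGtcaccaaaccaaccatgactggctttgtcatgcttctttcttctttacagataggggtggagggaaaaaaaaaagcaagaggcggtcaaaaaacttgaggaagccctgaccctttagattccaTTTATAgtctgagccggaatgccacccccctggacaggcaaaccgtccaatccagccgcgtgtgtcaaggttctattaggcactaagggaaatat
Tnni1, chr1:135799171-135799420 (+ strand): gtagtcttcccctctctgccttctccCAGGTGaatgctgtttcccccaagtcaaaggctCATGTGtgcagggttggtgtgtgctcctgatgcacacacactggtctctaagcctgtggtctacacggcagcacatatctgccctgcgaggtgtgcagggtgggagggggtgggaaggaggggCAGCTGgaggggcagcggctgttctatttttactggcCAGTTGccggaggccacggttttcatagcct
All 5 stretches hold CAGCTG, and the CArG box stands only in those of Acta1 and Myh4. They were chosen for display, and CAGCTG was found for 15 of the 31 genes: Myh1, Myh2, Mybpc2, Tnnc2 and Pvalb, fast fiber genes that also fell, did not hold it in this window.

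The myosin light chains and troponins of fast fibers were abundant in control skin and fell in both lesion groups. Mylpf, the fast regulatory light chain, measured 1552, 559, 1154 and 1038 FPKM in the control, 88.4, 228, 78.7 and 106 FPKM in the IMQ + NS and 217, 211, 190.3 and 271 FPKM in the IMQ + BZLF samples. No lesion sample reached the lowest control sample, and the mean was 8.58-fold and 4.84-fold lower (adjusted p = 0.000242 and 0.000396 from limma). Myl1, the fast essential light chain, measured 402, 161, 287 and 255 FPKM in the control, 21.6, 39.01, 20.6 and 21.7 FPKM in the IMQ + NS and 49.5, 57.1, 38.6 and 76.05 FPKM in the IMQ + BZLF samples. Its groups were separate in both comparisons with the control group, with log2 fold changes of -3.40 (standard error 0.29, adjusted p = 3.91e-05 from limma) and -2.29 (standard error 0.29, adjusted p = 0.000384). Replicates 1, 3 and 4 of the IMQ + NS group lay within 20.6 to 21.7 FPKM for Myl1, and replicate 2 lay above them.

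Tnnc2, Tnni2 and Tnnt3 encode the calcium-binding, inhibitory and tropomyosin-binding subunits of fast troponin. Tnnc2 measured 1329.8, 529.95, 1167 and 1113 FPKM in the control, 88.001, 174, 79.1 and 95.7 FPKM in the IMQ + NS and 168, 163, 142 and 195 FPKM in the IMQ + BZLF samples. Tnni2 measured 1467, 554, 1316 and 1292 FPKM, 116, 224, 113 and 138 FPKM and 196, 186, 186 and 225 FPKM in the same order of groups. Tnnt3 measured 1227, 485, 1118 and 1152 FPKM, 102, 203, 105 and 123 FPKM and 179, 181, 147 and 209.9 FPKM. All 3 subunits kept the control samples above the lesion samples, with control replicate 2 nearest to them. The log2 fold changes in the IMQ + NS group were -3.24, -2.93 and -2.87 (adjusted p = 8.98e-05, 0.000157 and 0.000164 from limma), and those in the IMQ + BZLF group were -2.56, -2.46 and -2.39.

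Pvalb and Casq1 gave the largest changes of the 42 genes in the IMQ + NS group. Pvalb, encoding the calcium buffer parvalbumin of fast fibers, measured 722, 249, 597 and 553 FPKM in the control, 29.04, 49.5, 15.5 and 36.4 FPKM in the IMQ + NS and 64.7, 96.6, 50.9 and 127 FPKM in the IMQ + BZLF samples. Its mean was 16.3-fold lower in the IMQ + NS group (log2 fold change -4.03, standard error 0.41, adjusted p = 8.63e-05 from limma) and 6.26-fold lower in the IMQ + BZLF group (adjusted p = 0.0006798). Casq1, the calcium store protein calsequestrin of the sarcoplasmic reticulum, measured 139.6, 66.5, 103 and 120.3 FPKM, 8.003, 13.2, 4.604 and 7.45 FPKM and 18.3, 20.3, 12.03 and 25.7 FPKM, and its mean was 12.9-fold and 5.63-fold lower. For both genes the 3 groups stood in the order control, IMQ + BZLF and IMQ + NS by their means, and control samples overlapped with no lesion sample. Atp2a1, the calcium pump of fast fibers, measured 630.5, 286, 586 and 725 FPKM, 75.6, 151, 59.05 and 105 FPKM and 107, 92.9, 79.8 and 125 FPKM, with close log2 fold changes of -2.52 and -2.40. Actn3, the Z-disc actinin of fast fibers, Mybpc2, the fast myosin binding protein C, and Myoz1, the Z-disc protein myozenin 1, fell by log2 fold changes of -3.13, -2.95 and -2.71 with IMQ + NS and -2.63, -2.84 and -2.49 with IMQ + BZLF. In all, 14 of 14 fast fiber genes fell in each comparison, with medians of -2.97 and -2.43.

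Slow fiber genes behaved differently from gene to gene. Of the 7, Mybpc1 fell, Tnni1 rose, and Myh7, Myl2, Myl3, Tnnc1 and Tnnt1 were not called in either comparison with the control group, with a median log2 fold change over the 7 of -0.11 with IMQ + NS and 0.04 with IMQ + BZLF. Mybpc1, named the slow myosin binding protein C but also made in fast fibers, measured 84.2, 44.7, 80.5 and 99.2 FPKM in the control, 8.24, 19.3, 7.04 and 11.01 FPKM in the IMQ + NS and 15.1, 10.8, 12.3 and 13.3 FPKM in the IMQ + BZLF samples. Its level was far above that of the other slow genes, and its log2 fold changes were -2.80 and -2.52 (adjusted p = 0.000221 and 8.63e-05 from limma).

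Tnni1, the slow troponin I that is also used in developing muscle, measured 0.189, 0.339, 0.0867 and 0.107 FPKM in the control, 1.23, 1.05, 0.908 and 0.723 FPKM in the IMQ + NS and 1.74, 1.39, 1.498 and 1.26 FPKM in the IMQ + BZLF samples. Every lesion sample lay above every control sample, and every IMQ + BZLF sample lay above every IMQ + NS sample. The mean was 5.43 times the control mean in the IMQ + NS group (log2 fold change 2.01, standard error 0.29, adjusted p = 0.000574 from limma) and 8.16 times it in the IMQ + BZLF group (2.56, standard error 0.28, adjusted p = 0.000197 from limma). With a constant of 1 the log2 fold change in the IMQ + NS group was 0.74 and the gene was not called. Its level in the lesions stayed between 0.723 and 1.74 FPKM.

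Tnnt1, the slow troponin T, measured 3.84, 9.58, 3.47 and 2.57 FPKM in the control, 4.29, 3.73, 4.196 and 4.11 FPKM in the IMQ + NS and 4.77, 4.06, 3.59 and 5.78 FPKM in the IMQ + BZLF samples. The highest value was that of control replicate 2, and the log2 fold changes were -0.06 (95% confidence interval -0.85 to 0.72) and 0.07 (-0.76 to 0.89). Myl3, the slow essential light chain, measured 0.358, 1.76, 0.366 and 0.652 FPKM in the control samples and ranged from 0.329 to 1.04 FPKM in the IMQ + NS and from 0.307 to 0.822 FPKM in the IMQ + BZLF samples. Myl2, the slow regulatory light chain, ranged from 0.233 to 0.488 FPKM in the control, 0.106 to 0.344 FPKM in the IMQ + NS and 0.0693 to 0.533 FPKM in the IMQ + BZLF samples. Control replicate 2 was the highest control sample for Myh7, Myl3, Tnni1 and Tnnt1, although it was the lowest for 37 of the members. The confidence intervals of the log2 change in the IMQ + NS group ran from -1.08 to 0.20 for Myl2, from -1.21 to 0.998 for Myl3 and from -0.93 to 0.10 for Tnnc1, the slow and cardiac troponin C. The intervals of Myl2 and Myl3 include changes of more than 1 in size. In the samples of the IMQ + NS and IMQ + BZLF groups the 8 hair follicle markers summed to 7738 to 13919 FPKM, and whether the Tnni1, Tnnt1 and Myl3 reads came from muscle was not tested.

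Related genes were then compared within each sample, as the log2 ratio of FPKM + 0.1 of 10 pairs. Of these, 7 set a fast against a slow fiber gene, 1 set Actn3 against the shared Actn2, and 2 set Myh1 and Myh2 against Myh4 among the fast genes. The groups were compared with a two-sided exact permutation test of 4 against 4 samples whose smallest possible p is 0.0286. Over the 30 tests the smallest adjusted p was 0.0779, so that no ratio passed 0.05 after Benjamini-Hochberg adjustment. The ratio of Tnni2 to Tnni1 was 7779, 1635, 15181 and 12107 in the control samples, 94.8, 212, 124 and 190.55 in the IMQ + NS samples and 113, 133, 124 and 178 in the IMQ + BZLF samples. The control samples lay far above all lesion samples, and the log2 ratio was lower by a difference of -4.94 (standard error 0.63) in the IMQ + NS group and -5.02 (standard error 0.59) in the IMQ + BZLF group. In IMQ + NS against control samples the ratios of Myh4 to Myh7 (-3.00), Mylpf to Myl2 (-2.71), Myl1 to Myl3 (-3.29), Tnnc2 to Tnnc1 (-2.82) and Actn3 to Actn2 (-0.94) were also without overlap (exact permutation p = 0.0286 each, adjusted p = 0.0779). The ratio of Tnnt3 to Tnnt1 overlapped through control replicate 2 (-2.81, exact permutation p = 0.0571). That of Mybpc2 to Mybpc1, a pair in which both genes are abundant, differed by -0.15 (standard error 0.17, exact permutation p = 0.429). Against the control group, 5 of the 10 IMQ + BZLF ratios, all fast to slow, were without overlap. For Mylpf to Myl2 and Myh4 to Myh7 this held only with the added constant. Their plain ratios reached 3909 and 723 in IMQ + BZLF samples, against 2395 to 3204 and 602.5 to 3652.5 in the control samples. Between the lesion groups 0 of 10 were, with 1 of the 10 at a constant of 1 and 3 without IMQ + NS replicate 2. The slow members Myh7, Myl2, Myl3, Tnnc1, Tnni1 and Tnnt1 lay between 0.0693 and 9.58 FPKM in all samples.

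**Figure D3:**
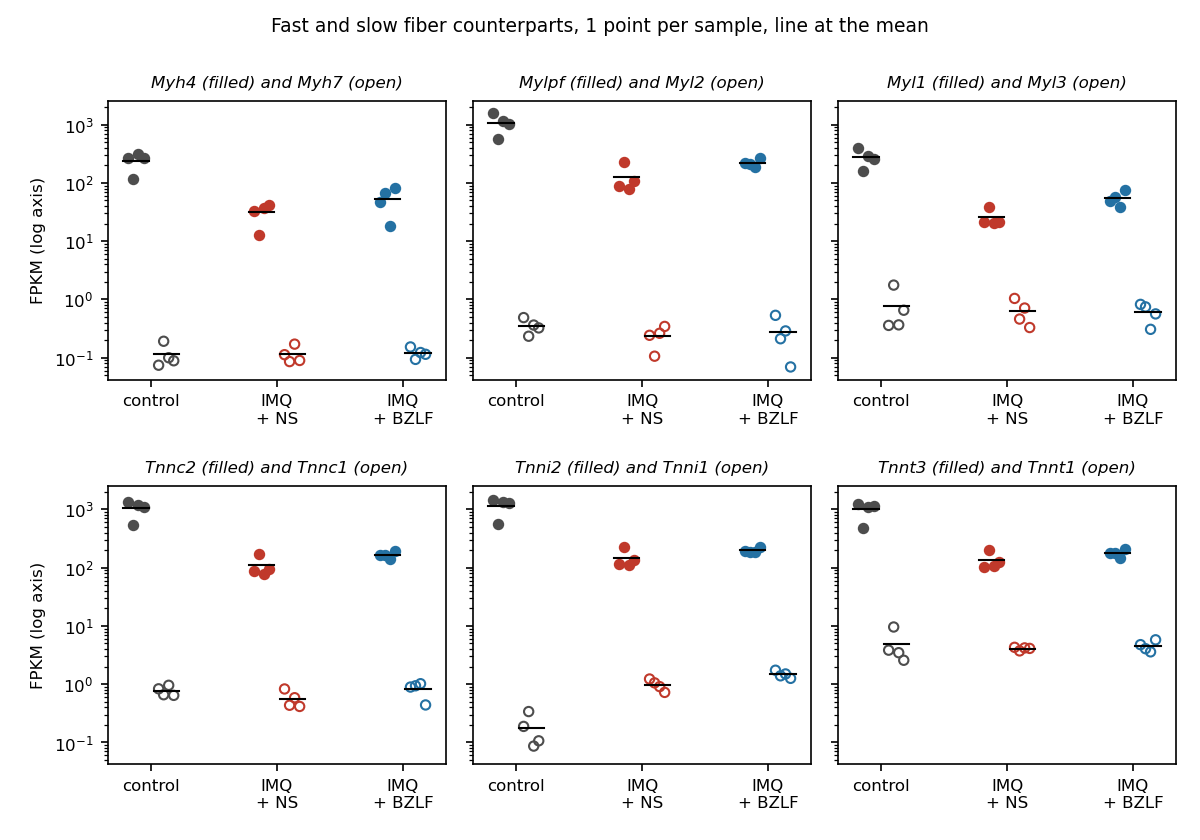
Each panel gives the FPKM (log axis) of a fast fiber gene (filled) and its slow counterpart (open) in the 4 samples of each group, with a line at the mean. Filled points fall from the control to both lesion groups in all 6 panels, while the open points of the control and lesion groups overlap except for Tnni1, which lies at 0.0867 to 0.339 FPKM in the control group and at 0.723 to 1.74 FPKM in the lesions.

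The sarcomere genes used by both fiber types fell as a group, 8 of 8 in each comparison, with medians of -2.38 and -2.27. Acta1, skeletal alpha-actin, measured 3421, 1420.1, 3303 and 3542 FPKM in the control, 296, 700.4, 226 and 355 FPKM in the IMQ + NS and 577, 509, 484 and 619 FPKM in the IMQ + BZLF samples. The lowest control sample lay above the highest lesion sample, and the mean was 7.404-fold and 5.34-fold lower (log2 fold change -2.93, standard error 0.39, adjusted p = 0.000374; and -2.33, standard error 0.28, adjusted p = 0.000304, from limma). Ttn, the giant spring protein titin, had the smallest fall of the 8 in the IMQ + NS group, from 2.302 ± 0.6403 to 0.605 ± 0.137 FPKM (SD, n = 4; log2 fold change -1.75), and measured 0.536 ± 0.0847 FPKM in the IMQ + BZLF group. The log2 fold changes of the other members, IMQ + NS first, were those of Neb, the thin filament ruler nebulin (-2.15 and -1.95), Actn2, the Z-disc actinin of all fibers (-2.19 and -2.16), Des, the intermediate filament desmin (-2.23 and -2.29), Tcap, the titin cap (-2.54 and -2.25), and the Z-disc genes Myot (-2.58 and -2.65) and Ldb3 (-2.96 and -2.52). Desmin is also made by smooth muscle, whose 8 markers summed to 237 to 348 FPKM over all 12 samples. Within that sum, 4 of the 8, among them Synpo2 (-2.33 and -2.11) and Myh11 (-1.82 and -1.63), were called lower in both lesion groups, with list medians of -1.03 and -0.69, and 1 was called higher in the IMQ + BZLF group. The part of smooth muscle in the fall of desmin was not tested.

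All 5 calcium release genes fell in both lesion groups, with medians of -2.41 and -2.17. Ryr1, the calcium release channel of the sarcoplasmic reticulum, measured 14.3, 8.13, 14.1 and 16.9 FPKM in the control, 2.61, 4.19, 2.49 and 3.75 FPKM in the IMQ + NS and 2.77, 2.94, 3.01 and 4.14 FPKM in the IMQ + BZLF samples. Its log2 fold changes were -1.99 and -1.99 (adjusted p = 0.000279 and 0.000259 from limma). The voltage sensor genes Cacna1s and Cacng1 changed by -2.41 and -2.49 with IMQ + NS and by -2.17 and -2.37 in the IMQ + BZLF group. Trdn, whose product triadin anchors the release channel to calsequestrin, fell from 11.6 ± 3.27 to 1.42 ± 0.851 and 2.18 ± 0.839 FPKM (SD, n = 4 each). Jph1, which ties the reticulum to the surface membrane, fell from 6.01 ± 1.79 to 1.16 ± 0.255 and 1.51 ± 0.168 FPKM.

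The 7 energy genes fell with the contractile ones, 7 of 7 in each comparison, with medians of -2.70 and -2.49. Ckm, muscle creatine kinase, measured 1546, 633, 1506 and 1429 FPKM in the control, 162, 291, 162 and 184 FPKM in the IMQ + NS and 202, 222, 203 and 246 FPKM in the IMQ + BZLF samples. The lesion groups lay side by side with overlapping samples, and the mean was 6.398-fold and 5.86-fold lower than in the control group (adjusted p = 0.000192 and 0.000211 from limma). Mb, encoding the oxygen store myoglobin, measured 259, 124, 248 and 327 FPKM, 37.6, 73.5, 29.7 and 32.2 FPKM and 51.3, 33.1, 54.4 and 37.5 FPKM in the control, IMQ + NS and IMQ + BZLF samples. Among the glycolytic genes, Pgam2 fell from 257 ± 88.2 to 26.5 ± 13.96 and 36.6 ± 2.45 FPKM, and Pygm, the muscle glycogen phosphorylase, from 162 ± 54.7 to 24.4 ± 8.33 and 23.1 ± 2.82 FPKM (SD, n = 4 each). The glycolytic genes Eno3 and Pfkm and the AMP deaminase gene Ampd1 changed by -2.78, -2.54 and -2.98 with IMQ + NS and by -2.49, -2.49 and -2.46 in the IMQ + BZLF group.

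Whether BZLF changed the muscle genes of lesions was asked by setting the IMQ + BZLF group against the IMQ + NS group. Of the 42 genes 1 rose, Myl1, and none fell, with 0.321% of all genes tested called higher and 2.20% called lower. With an unadjusted p below 0.05 and the same fold limit, 3 genes were called higher and 0 lower, beside 0.576% and 2.64% of all genes. The log2 changes of the 42 genes ran from -0.14 (Ttn) to 1.41 (Pvalb), 36 above 0 and 6 below, with a median of 0.29 beside -0.02 for all genes. The median without IMQ + NS replicate 2 was 0.45, and without IMQ + NS replicate 3 it was 0.20. Values of 3 genes, Pvalb, Tnni1 and Myh8, were higher in every IMQ + BZLF sample than in any IMQ + NS sample, and no gene was lower without overlap, beside 4.24% and 10.9% of all genes.

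Myl1, at 21.6, 39.01, 20.6 and 21.7 FPKM with saline and 49.5, 57.1, 38.6 and 76.05 FPKM with BZLF, differed by 1.11 on the log2 scale (standard error 0.25, limma adjusted p = 0.0314). The groups overlapped by the closeness of IMQ + NS replicate 2 and IMQ + BZLF replicate 3. The call was lost when IMQ + NS replicate 1, 3 or 4 or IMQ + BZLF replicate 2 or 4 was left out, with log2 changes of 0.94 to 1.08. It was also lost without the filter on low values, with all 12 samples in one fit and without the variance trend. The larger difference of Pvalb, 1.41 with a standard error of 0.37, missed the threshold (adjusted p = 0.0592 from limma), as did Casq1 with 1.23 (standard error 0.31, adjusted p = 0.0508 from limma) and Mylpf with 0.95 (standard error 0.30, adjusted p = 0.0963 from limma). All 4 are fast fiber genes, and all 14 fast fiber genes lay above 0, but Mybpc2 (0.11), Atp2a1 (0.12) and Myoz1 (0.22) differed little. Differences of this size were not limited to the fast list. Of 24 other sarcomere and Z-disc genes, Actc1 (1.74) and Mybph (1.61) differed by more, while 8 lay below 0. Tnni1 differed by 0.56 (standard error 0.17, adjusted p = 0.0867 from limma).

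By group the medians in this comparison were 0.49 for the fast fiber genes, 0.13 for the slow fiber genes, 0.12 for the shared sarcomere genes, 0.24 for the calcium release genes and 0.17 for the energy genes. The abundant Acta1 differed by 0.60 (95% confidence interval -0.06 to 1.26), Ckm by 0.17 (-0.23 to 0.57) and Ryr1 by -0.0025 (-0.43 to 0.43). The intervals of Ckm and Ryr1 leave out a change of 1 in either direction, and that of Acta1 does not. Myh4 and Myh1, whose shares varied among the lesion samples, had the widest intervals of the fast genes, -0.44 to 1.84 and -0.99 to 1.60.

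**Figure D4:**
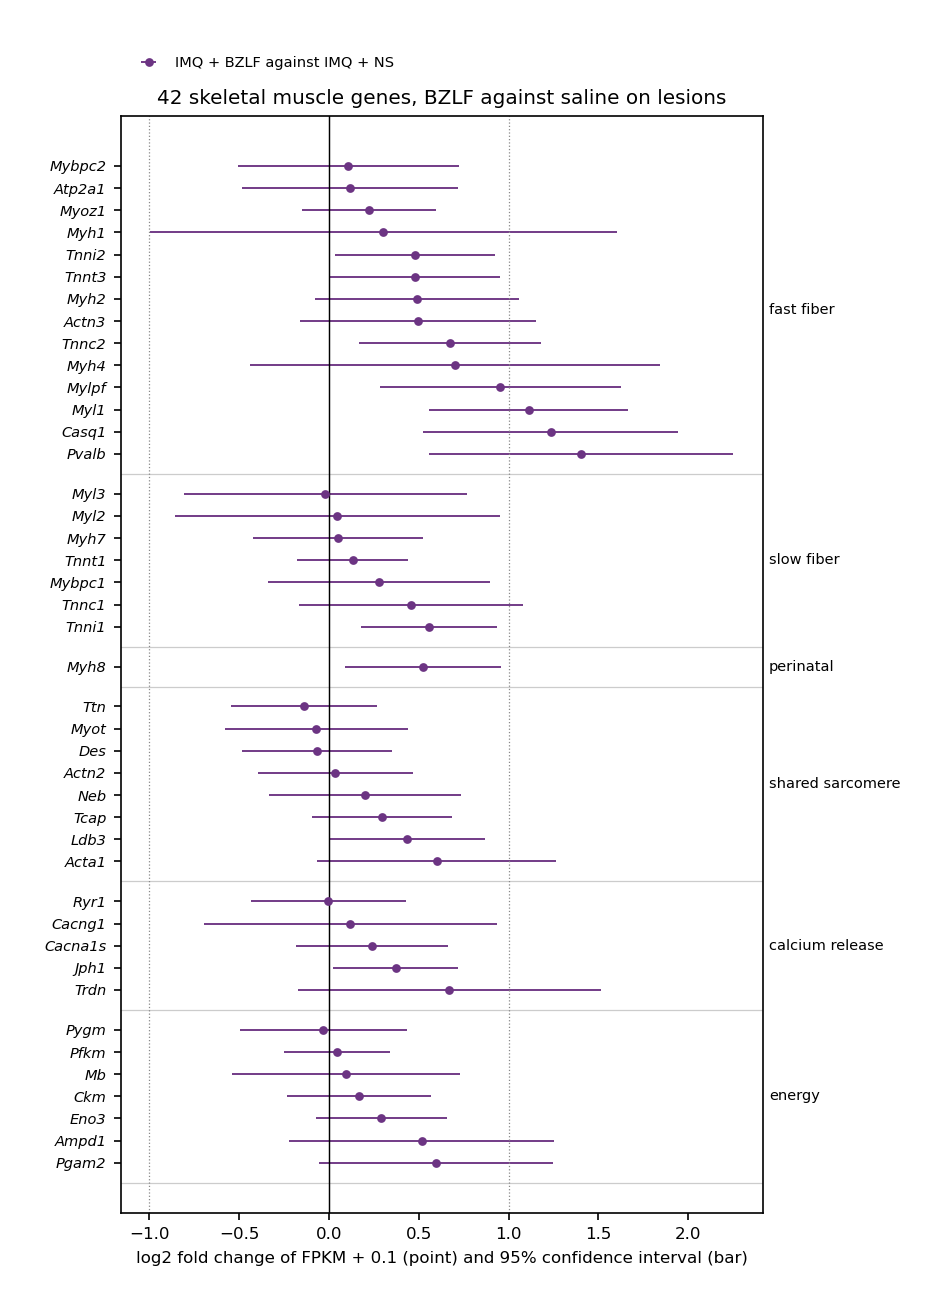
Points give the log2 fold change of FPKM + 0.1 of each of the 42 genes in the IMQ + BZLF against the IMQ + NS group, with bars for the 95% confidence interval and dotted lines at -1 and 1. Most points lie above 0, with 36 above and 6 below, and Pvalb, Casq1 and Myl1 lie past 1.

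Other muscle genes, from lists that were written with earlier results of these data known, showed whether the fall was limited to the members. In the IMQ + NS against the control group, 22 of 24 other sarcomere and Z-disc genes were called lower (median -2.37), 11 of 14 other genes of excitation and contraction coupling (median -2.42) and 13 of 13 other muscle energy genes (median -2.71), with no gene of these lists called higher. The largest falls were those of Xirp2 (-3.40), Smpx (-3.20) and Myoz3 (-3.11) of the sarcomere list, of Sypl2 (-3.58) of the coupling list, and of Phkg1, a phosphorylase kinase subunit (-3.12), and Ckmt2, the mitochondrial creatine kinase (-3.00). Of 9 genes of the nerve and muscle junction, 7 were tested and 6 fell, among them Colq, which anchors acetylcholinesterase (-3.49), and Chrne, the adult acetylcholine receptor subunit (-2.49). Of 12 myogenic factors and satellite cell genes, 10 were tested and 7 fell, with Myf6 at 9.34, 6.14, 10.7 and 9.55 FPKM in the control and 0.774, 1.81, 1.15 and 0.974 FPKM in the IMQ + NS samples (-2.86, adjusted p = 4.97e-05 from limma). Myod1, the founding factor of this family, also fell (-2.85 on the log2 scale, limma adjusted p = 0.000455).

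In the IMQ + BZLF group against the control group, 19 of the 24 sarcomere genes, 11 of the 14 coupling genes and 12 of the 13 energy genes were called lower. Against the IMQ + NS group only 2 genes of all the other muscle lists were called, both higher and both of the sarcomere list. Without overlap, 6 of the 24 sarcomere genes were higher and 1 lower, Mylk2 (-0.90, not called), beside 4.24% and 10.9% of all genes. Alternative runs were followed gene by gene only for the 42 members. Actc1, the cardiac alpha-actin that developing and regenerating skeletal muscle also makes, measured 4.796, 1.198, 2.905 and 1.87 FPKM in the control, 0.204, 0.358, 0.374 and 0.392 FPKM in the IMQ + NS and 0.617, 2.44, 1.11 and 1.72 FPKM in the IMQ + BZLF samples. All IMQ + BZLF values lay above all IMQ + NS values (1.74, standard error 0.36, adjusted p = 0.0251 from limma). Mybph, a myosin binding protein, measured 4.23, 2.68, 3.402 and 2.11 FPKM, 1.001, 0.421, 0.547 and 0.535 FPKM and 1.98, 1.55, 1.73 and 3.13 FPKM in the same order and also kept the lesion groups apart (1.61, standard error 0.27, adjusted p = 0.0116 from limma).

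Genes of muscle wasting and of muscle repair did not move one way. Of 11 atrophy genes, 2 were called lower in the IMQ + NS group, Mstn, encoding the growth inhibitor myostatin (-3.86), and Trim63, encoding the muscle ubiquitin ligase MuRF1 (21.3, 8.42, 17.6 and 22.9 FPKM in the control and 2.78, 4.48, 2.04 and 3.15 FPKM in the IMQ + NS samples, -2.42). Foxo3, a transcription factor made in many tissues, was called higher (1.54). Of 9 genes of embryonic and regenerating muscle, 5 were tested, Csrp3 was called lower (-2.55) and Tnnt2 higher (1.16). The fusion genes Mymk and Mymx were at or below 0.291 FPKM in all samples.

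Markers of the other tissues in the samples were summed for comparison. The 9 adipocyte markers summed to 4340 to 9461 FPKM in the control samples, 2139.8 to 3348 FPKM in the IMQ + NS samples and 2907 to 3479.8 FPKM in the IMQ + BZLF samples, and 7 of the 9 were called lower in the IMQ + NS group. The 7 fibroblast markers summed to 13517 to 19322 FPKM in the control, 3817 to 5076 FPKM in the IMQ + NS and 4468.5 to 8386 FPKM in the IMQ + BZLF samples. The 6 peripheral nerve markers summed to 186 to 245, 66.2 to 82.5 and 71.8 to 113 FPKM in the same order. The sums of these 3 lists were lower in every lesion sample than in any control sample, but not every marker was: 6 of the 7 fibroblast and 3 of the 6 nerve markers were called lower in the IMQ + NS group, and the fibroblast marker Pdgfra overlapped between all groups. In the other direction, the 7 keratinocyte markers summed to 2792 to 3957 FPKM in the control, 6104 to 8998 FPKM in the IMQ + NS and 3506 to 4974.5 FPKM in the IMQ + BZLF samples, which overlapped the control samples. Of the 7, 5 were called higher with IMQ + NS and 2 with IMQ + BZLF, while Krt15 was lower in every lesion sample than in any control sample (-0.83 and -0.58, not called). All 8 hair follicle markers were called higher in both lesion groups. The 6 endothelial markers summed to 102 to 136, 76.5 to 93.0 and 61.6 to 93.2 FPKM, and none of the 6 was called. The part of these tissues in the fall of the muscle genes was not tested, and a lower share of muscle among all RNA and lower expression within muscle cannot be told apart.

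**Figure D5:**
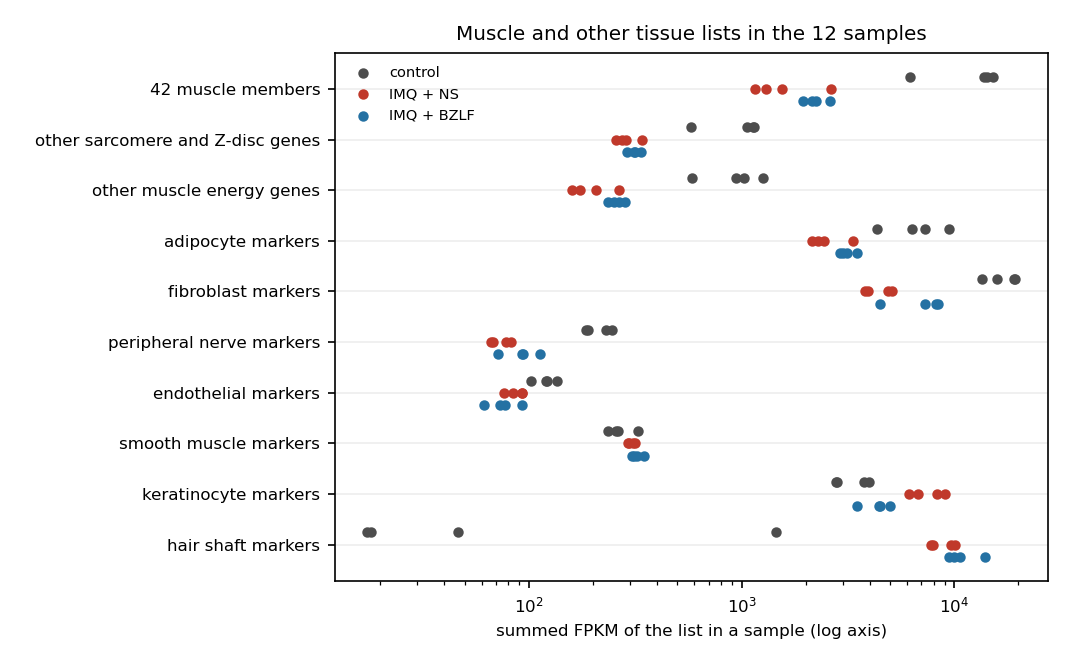
Each point is the summed FPKM of a gene list in 1 sample (log axis), with control samples in grey, IMQ + NS samples in red and IMQ + BZLF samples in blue. The muscle, adipocyte, fibroblast, nerve and endothelial lists are lower in every lesion sample than in any control sample, the hair follicle list (drawn as hair shaft markers) is higher, and the sum of the smooth muscle list lies between 237 and 348 FPKM although 4 of its 8 genes were called lower in both lesion groups.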

How the data were processed

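Total RNA of mouse back skin was sequenced in 12 samples, 4 per group, on day 10. Groups and replicate numbers were taken from the sample labels. The authors deposited 1 table of FPKM values for 18505 genes, with 1 column per sample, not on a log scale and not pooled. The study's methods name mirVana extraction, a TruSeq Ribo-Zero library, Bowtie2 alignment to transcripts and eXpress. The labels name TRIzol and a VAHTS library kit, and the submitters' processing notes name fastp, HISAT2, HTSeq, R 3.2.0 and mm10. Which of these made the deposited values is not given in the sources used here, and neither is the annotation. The choice bears on closely related genes, because the tools treat reads that match several genes differently. The study gives a total and a range over samples for its sequencing data, but not the amount for each sample. The reads behind each value are also unknown. Of 7693 low values, 48.3% were whole multiples of the smallest step to a tolerance of 0.05, so reads were not recovered. No counting interval is given, and the precision rests on 4 samples per group.

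The 15288 genes whose mean over the 12 samples reached 0.1 FPKM were tested on log2(FPKM + 0.1) in R 4.3.3 with limma 3.58.1 (moderated variances with a trend), separately for each pair of groups, with Benjamini-Hochberg adjustment over all genes tested. The constant understates the change of genes with a low FPKM. The test was checked on simulated data. Ratios of 10 pairs of related genes (7 fast to slow, 1 fast to shared and 2 between fast genes) were compared by exact permutation tests with scipy 1.17.1 in Python 3.11.15. Replicate numbers are shared by the groups in the labels, and no block was used. Gene positions and promoters came from RefSeq (GRCm38.p6). The members, the gene lists and the tests were chosen with earlier results of these data known. All 42 members could be named, at most 3 called genes of each other muscle list and comparison (those with the largest change), and at most 2 genes of each marker list. Genes named because they were near 0 were not counted in these limits. The alternatives were a constant of 0.01 or 1, no filter or a stricter filter (mean of 1 FPKM or more), median ratio scaling, quantile normalization, all 12 samples in one fit, no variance trend, a replicate block, other call rules, and each sample left out.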

Additional observations from a re-analysis of the deposited data

Results flagged for a closer look

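Of 126 groups of 4 values (42 genes in 3 groups), 12 had a highest or lowest sample whose gap to the nearest other sample, divided by the range of the group, exceeded Dixon's 95% critical value. Chance alone gives about 1 group in 20, and genes of the same muscle share their samples.

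In control replicate 2, 7 genes lay far below the other control samples: Acta1 at 1420.1 FPKM, Ckm at 633 FPKM, Tnnt3 at 485 FPKM, Pygm at 81.0 FPKM, Myoz1 at 61.8 FPKM, Eno3 at 57.1 FPKM and Mybpc2 at 48.6 FPKM. In IMQ + NS replicate 2, 4 genes lay far above the rest of the group: Tcap at 51.4 FPKM, Myl1 at 39.0 FPKM, Eno3 at 22.5 FPKM and Ampd1 at 2.05 FPKM. In IMQ + BZLF replicate 4, Jph1 lay above the others at 1.76 FPKM. Control replicate 2 was also the control sample with the most hair follicle RNA (1458 FPKM over 8 markers). The part of the hair follicle RNA in these low values was not tested.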

How the results depend on the processing

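No called value of the 42 genes changed sign under any alternative run. The count called lower in the IMQ + NS group was 35 to 36, and 36 whichever sample was left out, with a median log2 fold change of -2.89 to -2.46 under single samples left out. For the IMQ + BZLF group against the control group the lower count was 35 to 36 and the median -2.62 to -2.23. With a mean FPKM of at least 1, only 36 members were tested and 35 were called lower. The single higher call, Tnni1, was absent (0 genes) at a constant of 1 in the IMQ + NS group and, since it was then not tested, at a mean FPKM of at least 1 in both comparisons with the control group. Quantile normalization moved the median of all genes in the IMQ + NS against the control group from 0.05 to -0.07.

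The count called higher in the IMQ + BZLF against the IMQ + NS group, 1, was 0 without a filter, with all 12 samples in one fit and without the variance trend, 2 with median ratio scaling or quantile normalization, and 3 with an unadjusted p. Leaving out single samples gave 0 to 4, with 4 without IMQ + NS replicate 2, 2 without IMQ + BZLF replicate 3, and 0 without IMQ + NS replicate 1, 3 or 4 or IMQ + BZLF replicate 2 or 4. The median was 0.20 to 0.45. With the replicate number as a block the count was 3. Correlations of the deviations of same-numbered samples ran from -0.15 to 0.26 and were not all above 0.1 in any comparison. Pairing by number was therefore not assumed, although so few samples cannot exclude it. The block gave 36 lower and 1 higher in both comparisons with the control group. Between the lesion groups the gene pair ratios without overlap, 0 of 10, were 1 at a constant of 1 and 0 to 3 with single samples left out (3 without IMQ + NS replicate 2). Against the control group, the IMQ + BZLF count of 5 was 3 at a constant of 0.01 and 5 to 6 with samples left out, and the IMQ + NS count of 6 was 6 to 7. The causes of these changes were not tested. Members with a group mean below about 0.5 FPKM are limited by the number of reads behind each value, which is unknown. These were Myh7, Myl2, Tnni1 in control skin and Myh8 in the IMQ + NS group. Single values of other members, such as Myl3 and Tnnc1, also lay below this level.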
